A study of Mus musculus with 12 samples.

Results

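The genes described here are 40 genes of glycolysis and of the response to low oxygen, taken by symbol from the gene counts. The rule that picks them uses no measured value, but the genes were proposed with earlier results of these data known. They comprise 16 enzymes of the path from glucose to lactate, 3 transporters of glucose and lactate, 3 regulators of glycolytic flux, 4 genes of oxygen sensing, and 14 other genes known to be induced by hypoxia. All 40 were among the 24054 genes in the files, and 39 of them passed the filter on low reads that left 14860 genes for testing. The gene left out was Eno1, an enolase gene, which held at most 1 read in any library. The files count 0 reads that align at several loci, and copies nearly identical to Eno1 exist in the mouse genome, so its level was not measured.

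The samples were 12 RNA libraries of mouse colon, 4 in each of 3 groups, and the strain was NSG, an immunodeficient mouse, in every group. The group N was normal colon labelled wild type. The group BT-T was engrafted tumour with the genotype BrafV600E;Tgfbr2-/-, an activated kinase allele together with loss of a TGF-beta receptor. The group BTPRZ-T was engrafted tumour that carried both of those changes and was in addition Rnf43-/-, Znrf3-/- (ligases that hold WNT receptors down) and p16 Ink4a-/- (a cell cycle inhibitor). The labels give no age, nor whether replicates are separate animals or separate organoid lines, so p-values measure the spread between these libraries, which may be technical. Whole tumours can hold host cells beside the engrafted ones, and reads of the Y-linked Ddx3y and of Xist, which is made in female cells, occurred together in 4 tumour libraries (BT-T replicates 2 to 4 and BTPRZ-T replicate 2), with 12.7 to 47.6 CPM of Ddx3y and 95.8 to 730 CPM of Xist. N replicates 1 to 3 held 33.4 to 43.7 CPM of Ddx3y and 1.09 to 16.6 CPM of Xist. Ddx3y was at most 0.11 CPM in N replicate 4, BT-T replicate 1 and BTPRZ-T replicates 1, 3 and 4. These held 505 to 1550 CPM of Xist. Both transcripts were thus spread unevenly over the groups, and the part of sex in the changes below was not tested.

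Cells read oxygen through the EGLN prolyl hydroxylases, which mark the HIF alpha subunits for destruction as long as oxygen is at hand. When oxygen runs short the subunits HIF1A and EPAS1 persist, pair with ARNT, and switch on genes for glucose uptake, glycolysis, blood vessel growth and mitochondrial turnover, and also Egln3, which feeds back on the sensor. The surface epithelium of the healthy colon borders an anaerobic lumen and is known for low oxygen at rest.

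The HIF dimer binds a short DNA core, ACGTG or GCGTG. In the RefSeq promoter windows of GRCm38.p6 (250 bases before to 50 after each start), ACGTG stood on either strand in 19.6% of 32851 windows, GCGTG in 32.4%, and at least 1 of the 2 cores in 43.8%. Of the 40 genes, 35 had windows, 53 in all, and 52.8% of these held ACGTG, 54.7% GCGTG and 77.4% either core. The 8 genes that rose in BTPRZ-T against N, described below, had 9 windows, of which 6 held ACGTG and 8 either core. Either core stood in 74.1% of the 27 windows of the glycolytic enzymes and in 75.0% of the 16 windows found for 11 of the 14 other hypoxia-induced genes. The stretches below lie upstream of the RefSeq start. By the GENCODE gene positions, the Higd1a stretch and most of the Pfkfb4 stretch lie within the gene. The first 5 genes rose in BTPRZ-T, Pgk1 carries ACGTG cores and did not pass the test, and Higd1a and Pfkfb4 carry GCGTG cores and fell. They read 5′ to 3′ along the gene's strand, and capitals mark each core on either strand. The palindrome CACGTG, as in Bnip3, holds ACGTG on both strands.
Egln3 (chr12:54204087-54204115, minus strand): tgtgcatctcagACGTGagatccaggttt
Bnip3 (chr7:138909525-138909635, minus strand): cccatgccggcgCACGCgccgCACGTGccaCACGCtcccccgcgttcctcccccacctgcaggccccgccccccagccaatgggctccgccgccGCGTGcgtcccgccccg
Ddit4 (chr10:59951869-59951969, minus strand): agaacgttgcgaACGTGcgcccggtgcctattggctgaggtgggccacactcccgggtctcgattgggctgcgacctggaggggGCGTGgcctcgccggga
Stc2 (chr11:31370276-31370311, minus strand): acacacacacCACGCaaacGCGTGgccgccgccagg
Adm (chr7:110627555-110627619, plus strand): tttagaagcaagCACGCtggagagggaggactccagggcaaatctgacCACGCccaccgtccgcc
Pgk1 (chrX:106186938-106186985, plus strand): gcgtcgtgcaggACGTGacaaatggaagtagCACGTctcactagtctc
Higd1a (chr9:121857846-121857878, minus strand): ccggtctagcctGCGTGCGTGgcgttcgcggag
Pfkfb4 (chr9:108991773-108991801, plus strand): ttgacggatgggGCGTGcttagtccaaaa
The Egln3 core begins 229 bases before the start and the nearest Bnip3 core 35 bases before it. Stc2 and Adm held GCGTG cores and no ACGTG in their upstream bases. Vegfa and Ldha had 2 windows each, and core positions were read in the first only. In its upstream bases Vegfa, which rose, held no core. Ldha, which did not pass, held 5 ACGTG cores there, counted on both strands. Cores thus stood in genes that rose, in genes that fell and in genes with no call. A match of letters is a description of the window and not a measured binding site.

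The depth per library was 15.7M to 26.1M reads in genes. Levels below are CPM, a gene's reads after scaling every library to a common total by TMM factors, and a gene was called changed at a Benjamini-Hochberg adjusted p under 0.05 over all tested genes. Log2 fold changes are given ± SE. The N replicate 2 library stood apart: 10.96% of its gene reads fell on ribosomal protein genes, where replicates 1, 3 and 4 of N had 1.59 to 1.94%, and it favoured short transcripts. Of the 8 tested genes here with a longest transcript under 2000 bases, 6 lay above every other N library in it and none below. Of the 14 with 4000 bases or more, 12 lay below the other N libraries. BTPRZ-T replicates 1 and 4 and N replicate 2 showed reads for the smallest numbers of genes, 13450 to 14697 against 16131 to 17266 in the rest. The ribosomal protein share was also higher in every BTPRZ-T library (3.64 to 9.09%) than in every BT-T library (1.86 to 2.73%), and BTPRZ-T replicates 1, 2 and 4 likewise favoured short transcripts. With the trend on transcript length removed from each library, 9 of the 11 calls of BTPRZ-T against N remained, those of Ddit4 and Adm being lost. The part of RNA quality in the remaining calls was not tested. All 15 epithelial markers had reads, and their summed level was 12646 to 16655 CPM (N), 10160 to 12149 CPM (BT-T) and 8918 to 18725 CPM (BTPRZ-T).

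**Figure D1:**
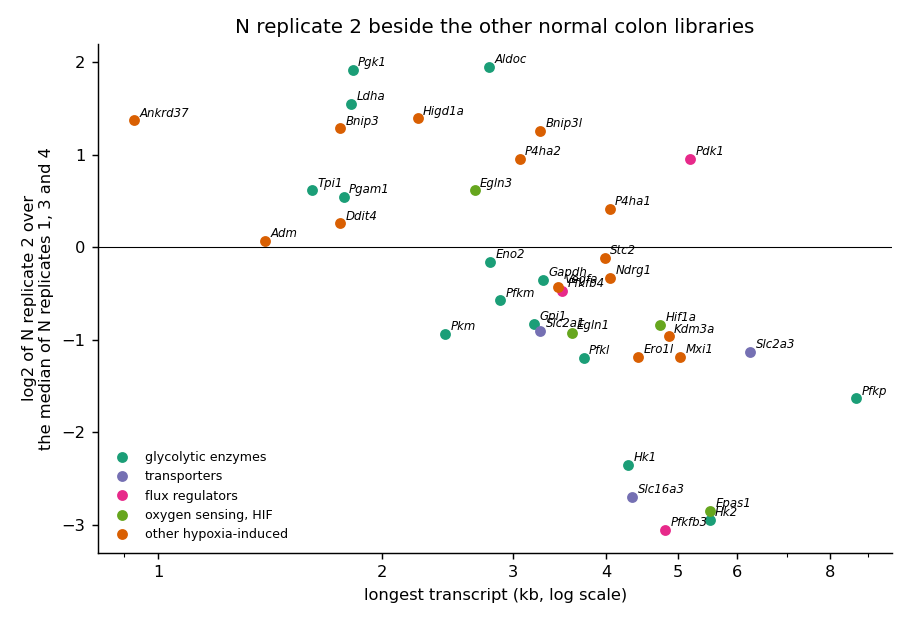
For 38 tested genes with a known length, the log2 ratio of the CPM in N replicate 2 to the median of N replicates 1, 3 and 4 (vertical axis) is plotted against the longest transcript in kilobases (horizontal axis, log scale), with colours for the gene's role. Short transcripts such as Pgk1 and Ldha lie above 0 and long ones such as Hk2 and Epas1 lie below it.

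In BTPRZ-T against N, 8 of the 39 tested genes rose (Gapdh, Egln3, Vegfa, Adm, Bnip3, Ankrd37, Ddit4 and Stc2) and 3 fell (Pfkm, Pfkfb4 and Higd1a). These 11 are 28.2% of the 39, beside 11.8% of all 14860 genes, of which 5.66% rose and 6.18% fell. In BT-T against N 1 of the 39 passed, Higd1a, which fell, beside 8.57% of all genes. In BTPRZ-T against BT-T 1 of the 39 passed, Egln3, which rose, beside 0.754% of all genes. Of the 14 other hypoxia-induced genes, 6 rose and 1 fell in BTPRZ-T against N, with a median log2 fold change of 0.70, whereas of the 15 tested glycolytic enzymes 1 rose and 1 fell, with a median of 0.03, beside -0.10 over all genes. Without N replicate 2, 5 passed in BT-T against N, 19 in BTPRZ-T against N and 12 in BTPRZ-T against BT-T, beside 13.5%, 32.3% and 18.0% of all genes. Of the enzymes, 3 then rose (Aldoc, Gapdh and Pgk1) and 3 fell (Hk1, Hk2 and Pfkm) in BTPRZ-T against N. Without BTPRZ-T replicates 1 and 4 as well, the counts of these 3 comparisons were 15, 19 and 15, beside 28.7%, 34.9% and 24.5% of all genes. In whole tissue, fewer cells of a type and less RNA per cell cannot be told apart.

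**Figure D2:**
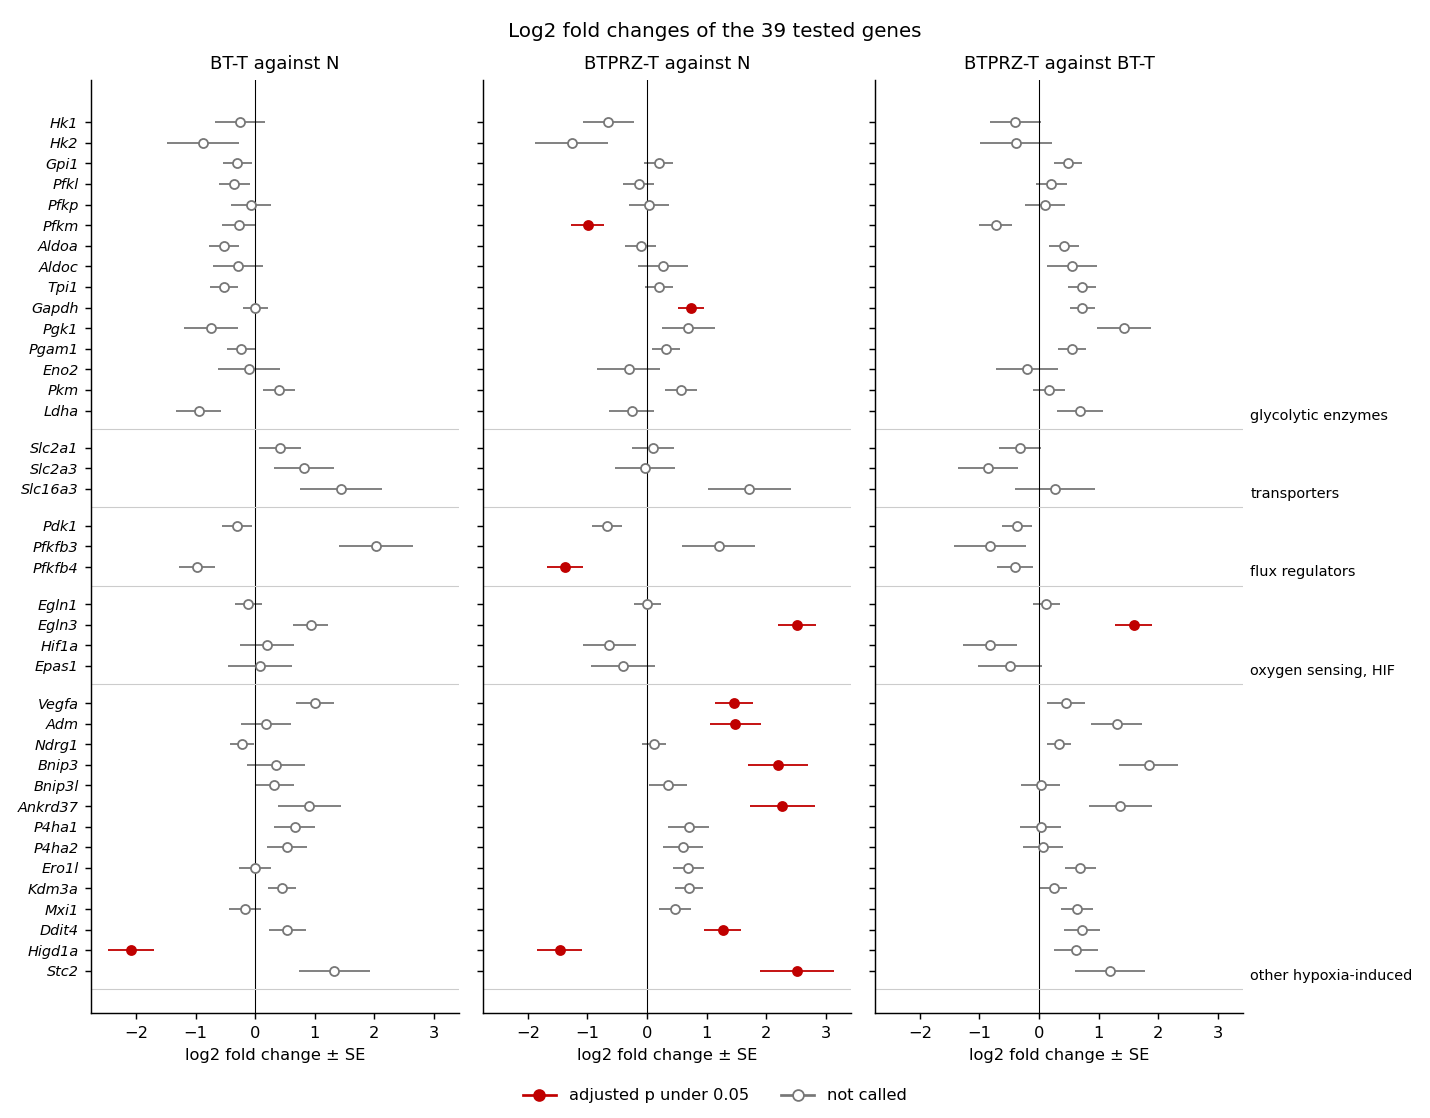
Log2 fold changes ± SE of the 39 tested genes (horizontal axes) in the 3 comparisons, grouped by role, with filled red points for an adjusted p under 0.05. The 14 other hypoxia-induced genes all lie above 0 in BTPRZ-T against BT-T with all 12 libraries, and Higd1a lies below 0 in both comparisons with N.

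Among the 4 genes of oxygen sensing, 1 rose: Egln3 (chr12:54178981-54203860, GRCm38, GENCODE annotation), the prolyl hydroxylase induced by HIF itself. It stood at 34.8, 53.3, 26.6 and 59.3 CPM in N replicates 1 to 4, at 61.9, 63.5, 124 and 82.6 CPM in BT-T, and at 231, 244, 294 and 229 CPM in BTPRZ-T. The 3 groups did not overlap: each BT-T library lay above each N library and each BTPRZ-T library above each BT-T library. The rise over N was 2.52 ± 0.31 (log2) in BTPRZ-T, a fold of 5.73, with an adjusted p of 0.000586, and it kept its call under all 25 alternative analyses. The log2 fold change of 0.93 ± 0.30 in BT-T against N did not pass (adjusted p = 0.0766), but did without N replicate 2 (1.04 ± 0.30, adjusted p = 0.0397). The difference between the tumour genotypes was 1.59 ± 0.30 with an adjusted p of 0.0423. That call was lost when any 1 of 7 libraries was left out (N replicate 1, BT-T replicates 1, 2 and 4, BTPRZ-T replicates 1, 2 and 3), with an adjusted p of up to 0.165, while the log2 fold change over all alternatives stayed between 1.47 and 1.85.

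The constitutive sensor Egln1 stood at 52.0 to 75.4 CPM in BTPRZ-T and 55.2 to 62.3 CPM in BT-T, and at 70.7 to 72.9 CPM in N but for 37.7 CPM in replicate 2. Its log2 fold change in BTPRZ-T against N was 0.01 ± 0.23. The ratio of Egln3 to Egln1 within a library, which no scaling factor touches, averaged -0.56 ± 0.85 (log2, SD, n = 4) for N, 0.45 ± 0.46 for BT-T and 1.98 ± 0.27 for BTPRZ-T. The BTPRZ-T ratios lay above all those of the other groups. An exact two-sided permutation test gave p = 0.0286 for BTPRZ-T against each other group, the smallest p that 4 against 4 libraries allow, and 0.118 after adjustment over the 33 ratio tests. Hif1a, the alpha subunit found in most cells, was at 120 to 155 CPM in BTPRZ-T, below every BT-T library (221 to 292 CPM), with a log2 fold change of -0.83 ± 0.45 that did not pass (adjusted p = 0.362). A fit of these 2 groups alone gave -0.89 ± 0.16, which passed (adjusted p = 0.0179), as did 10.8% of all genes in that fit. In N Hif1a ranged from 92.0 CPM in replicate 2 to 499 CPM in replicate 4. Epas1, the alpha subunit known from endothelium and other tissues, ranged from 37.3 to 410 CPM (N), 187 to 297 CPM (BT-T) and 89.2 to 295 CPM (BTPRZ-T), and did not pass in any comparison. Of 9 other tested HIF regulators, a list that includes Vhl, Arnt and Hif1an, none passed in BTPRZ-T against N, beside 11.8% of all genes. In BT-T against N 1 passed, which is 11.1% of the 9, near the 8.57% of all genes. This was Siah2, a ubiquitin ligase that acts on the EGLN enzymes, which fell by 1.18 ± 0.31 (adjusted p = 0.0316). Epo held 0 reads in every library.

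**Figure D3:**
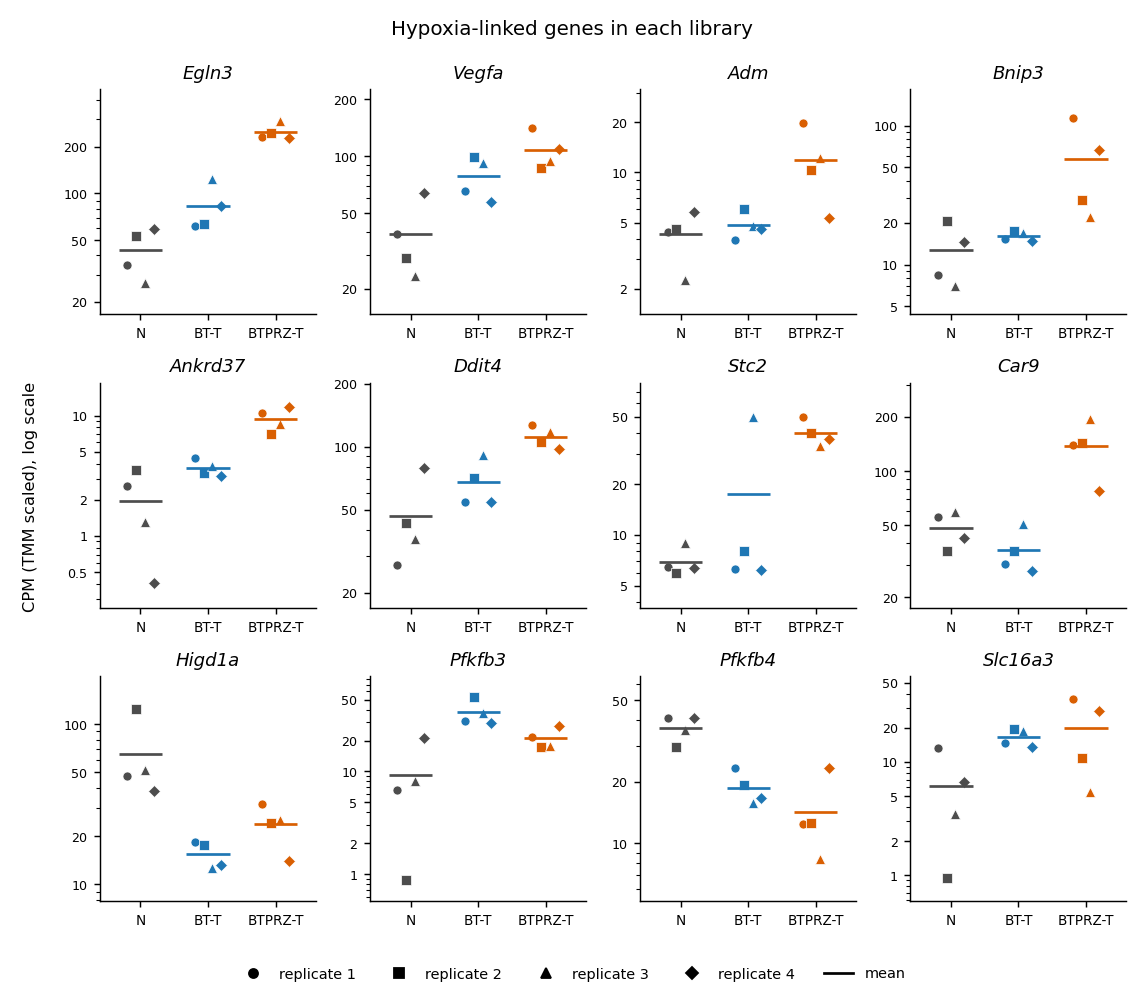
CPM (log axes) of 11 hypoxia-linked and flux genes and of Car9 in every library, with a marker shape per replicate and a line at the group mean. Egln3 lies in the order N, BT-T and BTPRZ-T with no overlap, and Stc2 in BT-T replicate 3 lies among the BTPRZ-T libraries.

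Of the signalling genes, Vegfa, the growth factor for blood vessels, stood at 39.1, 29.1, 23.5 and 64.1 CPM in N, at 65.4, 98.9, 92.1 and 57.0 CPM in BT-T, and at 141, 86.2, 93.8 and 109 CPM in BTPRZ-T. Every BTPRZ-T library lay above every N library, and BT-T overlapped both. The rise over N was 1.46 ± 0.32 in BTPRZ-T (adjusted p = 0.0122), and the log2 fold change of 1.01 ± 0.32 in BT-T did not pass (adjusted p = 0.0734). With the 2 groups alone the call in BTPRZ-T was lost (adjusted p = 0.0506). Adm, which encodes the vasodilator peptide adrenomedullin, was low: 4.37, 4.60, 2.24 and 5.80 CPM in N, 3.94, 5.99, 4.79 and 4.56 CPM in BT-T, and 19.8, 10.3, 12.2 and 5.32 CPM in BTPRZ-T. Replicates 1 to 3 of BTPRZ-T lay above both other groups, and replicate 4 lay among them. Its rise over N, 1.48 ± 0.43, passed (adjusted p = 0.0419) but lost the call with limma voom (adjusted p = 0.101), with the length trend removed (1.19, adjusted p = 0.0823) and when any 1 of 10 libraries was left out, that is all except N replicate 2 and BTPRZ-T replicate 4, with an adjusted p of up to 0.126. The call was also lost with no filter, with the 2 groups alone and with the replicate block.

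Stc2, a secreted glycoprotein induced by hypoxia and by stress of the endoplasmic reticulum, stood at 6.45, 5.96, 8.98 and 6.41 CPM in N and at 49.6, 39.8, 33.7 and 36.9 CPM in BTPRZ-T. In BT-T it stood at 6.31, 8.03, 49.4 and 6.18 CPM. Thus 3 BT-T libraries lay near N and replicate 3 lay among the BTPRZ-T libraries. The rise in BTPRZ-T over N was 2.52 ± 0.62 (adjusted p = 0.0209), lost without N replicate 1 or N replicate 4, with an adjusted p of up to 0.0612. The same BT-T library also held the highest BT-T level of Egln3.

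Bnip3, a receptor that marks mitochondria for autophagy, stood at 8.40, 20.6, 7.03 and 14.6 CPM in N, at 15.4, 17.5, 16.9 and 14.7 CPM in BT-T, and at 114, 29.1, 22 and 66.5 CPM in BTPRZ-T. All 4 BTPRZ-T libraries lay above the other groups, and replicates 1 and 4 were far above replicates 2 and 3. The rise over N was 2.19 ± 0.50 (adjusted p = 0.0144), and 1.42 without N replicate 2 and BTPRZ-T replicates 1 and 4, where it also passed. With the 2 groups alone the rise over N did not pass (adjusted p = 0.071). Over BT-T it was 1.84 ± 0.49 and did not pass (adjusted p = 0.0961), but passed without N replicate 2 (adjusted p = 0.0186). Without BTPRZ-T replicates 1 and 4 as well it was 0.66 ± 0.27 and did not pass (adjusted p = 0.0984). Its relative Bnip3l stood at 66.2, 54.4 and 40 CPM in N replicates 1, 3 and 4, 130 CPM in N replicate 2, 84.4 to 94.0 CPM (BT-T) and 66.3 to 122 CPM (BTPRZ-T), with no call. Without N replicate 2, Bnip3l passed against N for either tumour, with 0.77 ± 0.22 for BT-T (adjusted p = 0.0366) and 0.79 ± 0.22 for BTPRZ-T (adjusted p = 0.0171). Higd1a (chr9:121848563-121858362), a small mitochondrial protein that is induced by hypoxia in other settings, fell in both tumour groups. It stood at 47.4, 125, 51.8 and 38.0 CPM in N, at 18.3, 17.5, 12.6 and 13.3 CPM in BT-T, and at 31.5, 24.1, 25.1 and 13.9 CPM in BTPRZ-T. All 8 tumour libraries lay below all 4 N libraries. It fell by 2.09 ± 0.39 in BT-T (adjusted p = 0.00562) under all 25 alternatives, and by 1.47 ± 0.38 in BTPRZ-T (adjusted p = 0.0254). The latter call was lost without BTPRZ-T replicate 2 or replicate 4, with an adjusted p of up to 0.0619, and with the 2 groups alone (adjusted p = 0.0997). N replicate 2 held the highest level, and without it the falls were 1.57 ± 0.26 and 0.95 ± 0.26.

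Ddit4, an inhibitor of mTOR complex signalling, stood at 27.1, 43.3, 36.2 and 78.8 CPM in N, at 54.6, 70.8, 90.7 and 54.2 CPM in BT-T, and at 127, 105, 117 and 97.1 CPM in BTPRZ-T. The BTPRZ-T libraries lay above all others, and the rise over N was 1.27 ± 0.31 (adjusted p = 0.0204). It was lost without N replicate 1 or N replicate 3, with an adjusted p of up to 0.0641, and with the length trend removed (1.07, adjusted p = 0.0539). The call was also lost with the 2 groups alone (adjusted p = 0.0749). Ankrd37, an ankyrin repeat gene known as a direct HIF target, was low, with 2.59, 3.52, 1.30 and 0.405 CPM in N, 4.43, 3.31, 3.83 and 3.14 CPM in BT-T, and 10.6, 7.04, 8.48 and 11.8 CPM in BTPRZ-T. Here too every BTPRZ-T library lay above every other library, and the rise over N was 2.27 ± 0.55 (adjusted p = 0.0187). It was lost without N replicate 3 (adjusted p = 0.0573) and with the 2 groups alone (adjusted p = 0.0874).

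Like Bnip3l, the other 6 hypoxia-induced genes did not pass in any comparison with all 12 libraries. Ero1l, the oxidase that forms disulfide bonds in the endoplasmic reticulum, stood at 51.6 to 74.1 CPM in BTPRZ-T, above every N library (20.0 to 49.9 CPM) and every BT-T library (38.2 to 41.6 CPM). Kdm3a, a histone demethylase, stood at 78.0 to 107 CPM in BTPRZ-T and 71.1 to 81.0 CPM in BT-T, both above the 32.6 to 70.6 CPM of N. Neither passed, but Ero1l did without N replicate 2 against N (0.47 ± 0.16, adjusted p = 0.0376) and against BT-T (0.69 ± 0.14, adjusted p = 0.0105), and Kdm3a did against N (0.51 ± 0.15, adjusted p = 0.0262). The collagen prolyl hydroxylases P4ha1 and P4ha2 had BTPRZ-T levels of 80.1, 31.5, 20.4 and 55.7 CPM and of 29.3, 17.2, 12.3 and 30.5 CPM, so replicates 1 and 4 were again the high ones, while BT-T held 45.0 to 47.8 and 20.0 to 23.0 CPM. P4ha2 passed in BTPRZ-T against N without N replicate 2 (0.90 ± 0.29, adjusted p = 0.0339). Without BTPRZ-T replicates 1 and 4 as well, both passed in BT-T against N (0.83 ± 0.17 for P4ha1 and 0.90 ± 0.17 for P4ha2, adjusted p = 0.00443 and 0.00334), and P4ha1 was lower in BTPRZ-T than in BT-T (-0.82 ± 0.19, adjusted p = 0.015), where all 12 libraries gave 0.03. Mxi1, an antagonist of MYC, and Ndrg1, a stress-responsive gene, had BTPRZ-T means of 82.5 ± 14.6 and 331 ± 48.3 CPM (SD, n = 4), against 59.4 ± 19.2 and 306 ± 48.7 CPM in N. Mxi1 passed in BTPRZ-T against BT-T without N replicate 2 (0.64 ± 0.17, adjusted p = 0.0279).

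Summed over the 14 hypoxia-induced genes, the level was 712 to 782 CPM (N), 719 to 874 CPM (BT-T) and 952 to 1384 CPM (BTPRZ-T), so the BTPRZ-T libraries lay above all others. In BTPRZ-T against N, 7 of the 14 had every BTPRZ-T library above every N library, beside 6.88% of all genes. Cell type markers moved between the groups as well. The summed level of 12 fibroblast markers was 1387 to 2258 CPM (N), 9423 to 18050 CPM (BT-T) and 2123 to 9216 CPM (BTPRZ-T), and that of 12 macrophage markers 191 to 738, 1307 to 2168 and 430 to 3128 CPM. Both lists were thus higher in every BT-T library than in every N library. The summed level of 11 absorptive colonocyte markers was 6837 to 8949 CPM in N against 471 to 1894 CPM (BT-T) and 467 to 699 CPM (BTPRZ-T). Of the 11, 9 fell in BT-T and 10 in BTPRZ-T against N, where 8.57% and 11.8% of all genes were called. Smooth muscle markers (10) summed to 8374 to 19756, 4078 to 6613 and 596 to 5171 CPM. The part of these cell types in the changes of the hypoxia genes was not tested.

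Within BTPRZ-T, replicates 1 and 4 both lay above replicates 2 and 3 for 13 of the 39 tested genes (33.3%, beside 23.4% of all tested genes), among them Bnip3, Pgk1, P4ha1, P4ha2, Eno2, Slc16a3, Vegfa and Ankrd37. Both lay below replicates 2 and 3 for 9 of the 39 (23.1%, beside 27.2% of all tested genes). In the order of replicates 1 to 4, the summed macrophage markers were 1297, 703, 430 and 3128 CPM, the summed fibroblast markers 4143, 3482, 2123 and 9216 CPM, and the genes with a read 14697, 16438, 16131 and 13450. Macrophage and fibroblast markers were thus also higher, and detected genes fewer, in replicates 1 and 4. The part of these values in the split was not tested.

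A further list of 33 genes known as hypoxia targets, of which 32 were tested, held 6 that rose in BTPRZ-T against N (Car9, Lox, Loxl2, Hmox1, Igfbp3 and Anxa1) and none that fell, with a median log2 fold change of 0.45 beside -0.10 over all genes. These 6 are 18.8% of the list, beside 11.8% of all genes. In BT-T 6 rose (Angptl4, Lox, Loxl2, Edn1, Hmox1 and Igfbp3) and 1 fell, the transferrin receptor gene Tfrc, together 21.9% beside 8.57%. Both tumour groups share the N libraries, so these comparisons are not independent. Car9, the membrane carbonic anhydrase that is widely used as a marker of HIF activity, stood at 55.9, 36.1, 59.3 and 42.4 CPM in N, at 30.7, 35.9, 51.2 and 28.0 CPM in BT-T, and at 139, 143, 193 and 77.6 CPM in BTPRZ-T. Only the BTPRZ-T libraries lay apart, above all 8 others, while N and BT-T overlapped. It rose by 1.51 ± 0.30 over N (adjusted p = 0.00738) and by 1.92 ± 0.31 over BT-T (adjusted p = 0.0285). The call over BT-T was lost without any 1 of 6 libraries (BT-T replicates 1, 2 and 4, BTPRZ-T replicates 1, 2 and 3), with an adjusted p of up to 0.118. Its log2 fold change in BT-T against N was -0.41 ± 0.30. Lox and Loxl2, which crosslink collagen, and Edn1, the vasoconstrictor endothelin, had another order. Their means were 13.6, 64.9 and 18.5 CPM in N, 336, 213 and 60.1 CPM in BT-T, and 152, 138 and 24.1 CPM in BTPRZ-T, highest in the group with the highest fibroblast markers. The part of fibroblasts in these levels was not tested.

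Of the transporters, Slc2a1, the glucose transporter of most cells, ranged over 113 to 344 CPM (N), 192 to 352 CPM (BT-T) and 144 to 296 CPM (BTPRZ-T). All 3 groups overlapped, and the log2 fold change in BTPRZ-T against N was 0.10 with a 95% interval of -0.58 to 0.78. Slc2a3, a high-affinity glucose transporter, was low at 1.42 to 6.09 CPM over all libraries. It did not pass with all 12 libraries, but did in BTPRZ-T against BT-T without the 3 libraries of fewest detected genes (-1.48 ± 0.39, adjusted p = 0.0225). Slc16a3, the exporter of lactate from glycolytic cells, stood at 13.2, 0.948, 3.49 and 6.68 CPM in N, at 14.7, 19.4, 18.9 and 13.5 CPM in BT-T, and at 35.8, 10.9, 5.45 and 28.1 CPM in BTPRZ-T. Every BT-T library lay above every N library, and BTPRZ-T spanned both with replicates 1 and 4 high, and no comparison passed (1.45 ± 0.69 in BT-T, 1.72 ± 0.69 in BTPRZ-T, adjusted p = 0.223 and 0.136). Without N replicate 2 and BTPRZ-T replicates 1 and 4 the log2 fold change in BTPRZ-T against N was 0.14 ± 0.49, and against BT-T it was -1.02 ± 0.48 in place of 0.27, neither passing. Slc16a1, the lactate and butyrate carrier of colonic epithelium, came from the list of other glycolysis genes and fell by 1.11 ± 0.25 in BTPRZ-T against N (adjusted p = 0.0128), from 133 to 304 CPM in N to 85.6 to 116 CPM.

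Of the 3 flux regulators, Pfkfb4 fell in BTPRZ-T against N. Pfkfb3 and Pfkfb4 both encode enzymes that make and remove a fructose bisphosphate that activates phosphofructokinase. It differs from the fructose bisphosphate that phosphofructokinase itself forms. Pfkfb4 stood at 40.9, 29.5, 35.6 and 41.0 CPM in N, at 23.4, 19.3, 15.7 and 16.6 CPM in BT-T, and at 12.4, 12.5, 8.37 and 23.4 CPM in BTPRZ-T, so that all tumour libraries lay below all N libraries, though not without TMM factors. It fell by 1.37 ± 0.31 in BTPRZ-T (adjusted p = 0.0124), a call lost with the 2 groups alone (adjusted p = 0.0634). Its log2 fold change of -0.97 ± 0.30 in BT-T did not pass (adjusted p = 0.068) but did without N replicate 2 (-1.06 ± 0.29, adjusted p = 0.0325). Pfkfb3 stood at 6.68, 0.880, 8.03 and 21.2 CPM in N, at 31.0, 53.0, 36.8 and 29.5 CPM in BT-T, and at 21.7, 17.5, 17.8 and 27.6 CPM in BTPRZ-T. Every BT-T library lay above every N and every BTPRZ-T library, and the log2 fold change in BT-T against N was 2.03 ± 0.63 (adjusted p = 0.067), or 1.65 ± 0.39 without N replicate 2 (adjusted p = 0.0156). The within-library log2 ratio of Pfkfb4 to Pfkfb3 averaged 2.68 ± 1.71 for N (SD, n = 4), -0.98 ± 0.46 for BT-T and -0.65 ± 0.37 for BTPRZ-T. It was above 0 in all 4 N libraries and below 0 in all 8 tumour libraries, with exact permutation p = 0.0286 and adjusted p = 0.118 for either tumour group. Pdk1, the kinase that blocks entry of pyruvate into mitochondria, stood at 61.9 to 74.2 CPM in N but for 135 CPM in replicate 2, at 63.4 to 74.7 CPM in BT-T and at 47.2 to 67.0 CPM in BTPRZ-T, and did not pass. Without N replicate 2 and BTPRZ-T replicates 1 and 4 it passed as lower in BTPRZ-T than in N (-0.41 ± 0.13, adjusted p = 0.037) and than in BT-T (-0.48 ± 0.13, adjusted p = 0.0229). Its relative Pdk4, known from fasting metabolism and placed in the list of other glycolysis genes, fell by 3.75 ± 0.60 in BTPRZ-T (adjusted p = 0.00199), from 5.82 to 28.0 CPM in N to 0.387 to 1.44 CPM.

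**Figure D4:**
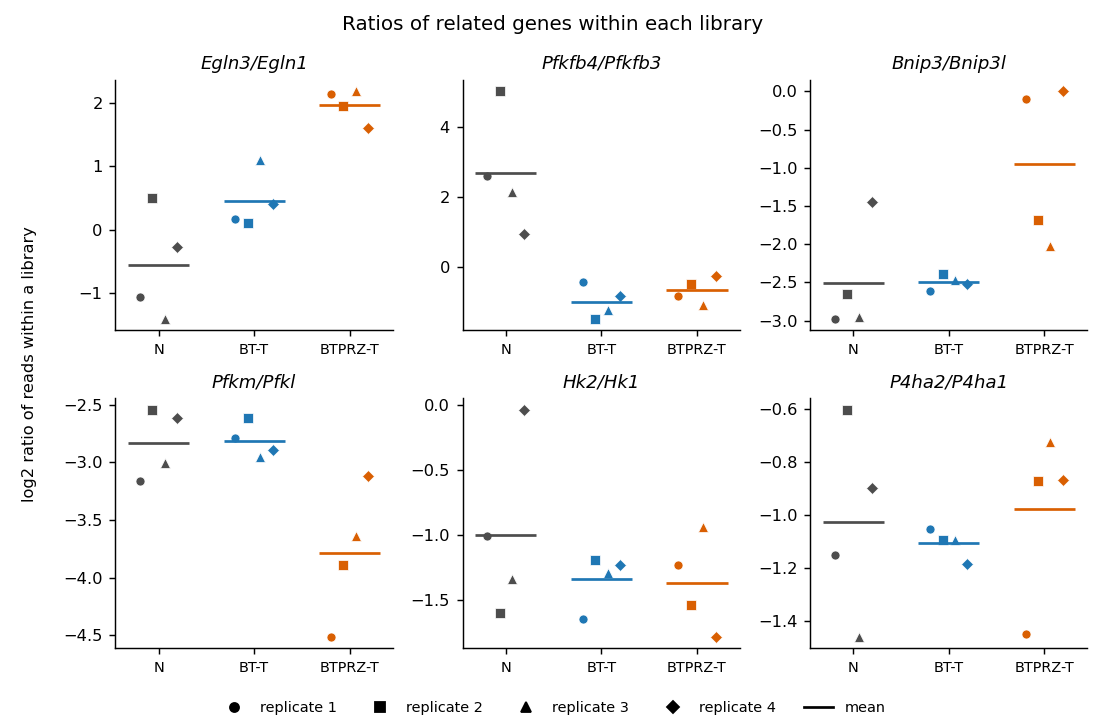
Log2 ratios of reads of related genes within each library (vertical axes), with a marker shape per replicate and a line at the group mean. The Egln3/Egln1 ratios of BTPRZ-T lie above those of both other groups, and the Pfkfb4/Pfkfb3 ratios lie above 0 in N and below 0 in all tumour libraries.

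The summed level of the glycolytic enzymes was lowest in BT-T on the TMM scale. Summed over the 15 measured enzymes, the level was 5295 to 6417 CPM (N), 4209 to 4533 CPM (BT-T) and 5229 to 6819 CPM (BTPRZ-T). On that scale the BT-T libraries lay below all others. As a share of all gene reads, with no scaling factor, the sum was 0.485 to 0.525% (N), 0.464 to 0.495% (BT-T) and 0.525 to 0.672% (BTPRZ-T), so N and BT-T overlapped. Of single enzymes, Aldoa, Tpi1 and Ldha were below every N library in BT-T, and Pfkm in BTPRZ-T, with TMM factors only. Aldoa and Ldha also lost the gap between BTPRZ-T and BT-T without them. On the TMM scale 13 of the 15 enzymes had a log2 fold change below 0 in BT-T against N (median -0.28, beside -0.10 over all genes), although none passed. In BTPRZ-T against BT-T 11 of the 15 lay above 0, with a median of 0.41 beside -0.03, again with none passing. For 7 of them every BTPRZ-T library lay above every BT-T library, beside 11.5% of all genes. Per kilobase of the longest transcript, Ldha, Pkm and Tpi1 had the highest mean levels of the enzymes with a known length in N (624, 321 and 289 CPM per kb) and also in BTPRZ-T (522, 479 and 333 CPM per kb). These levels depend on the longest annotated transcript, 3289 bases for Gapdh, and leave out reads that align at several loci. The loss of such reads was not measured for any enzyme, so the order is one of counted reads only.

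**Figure D5:**
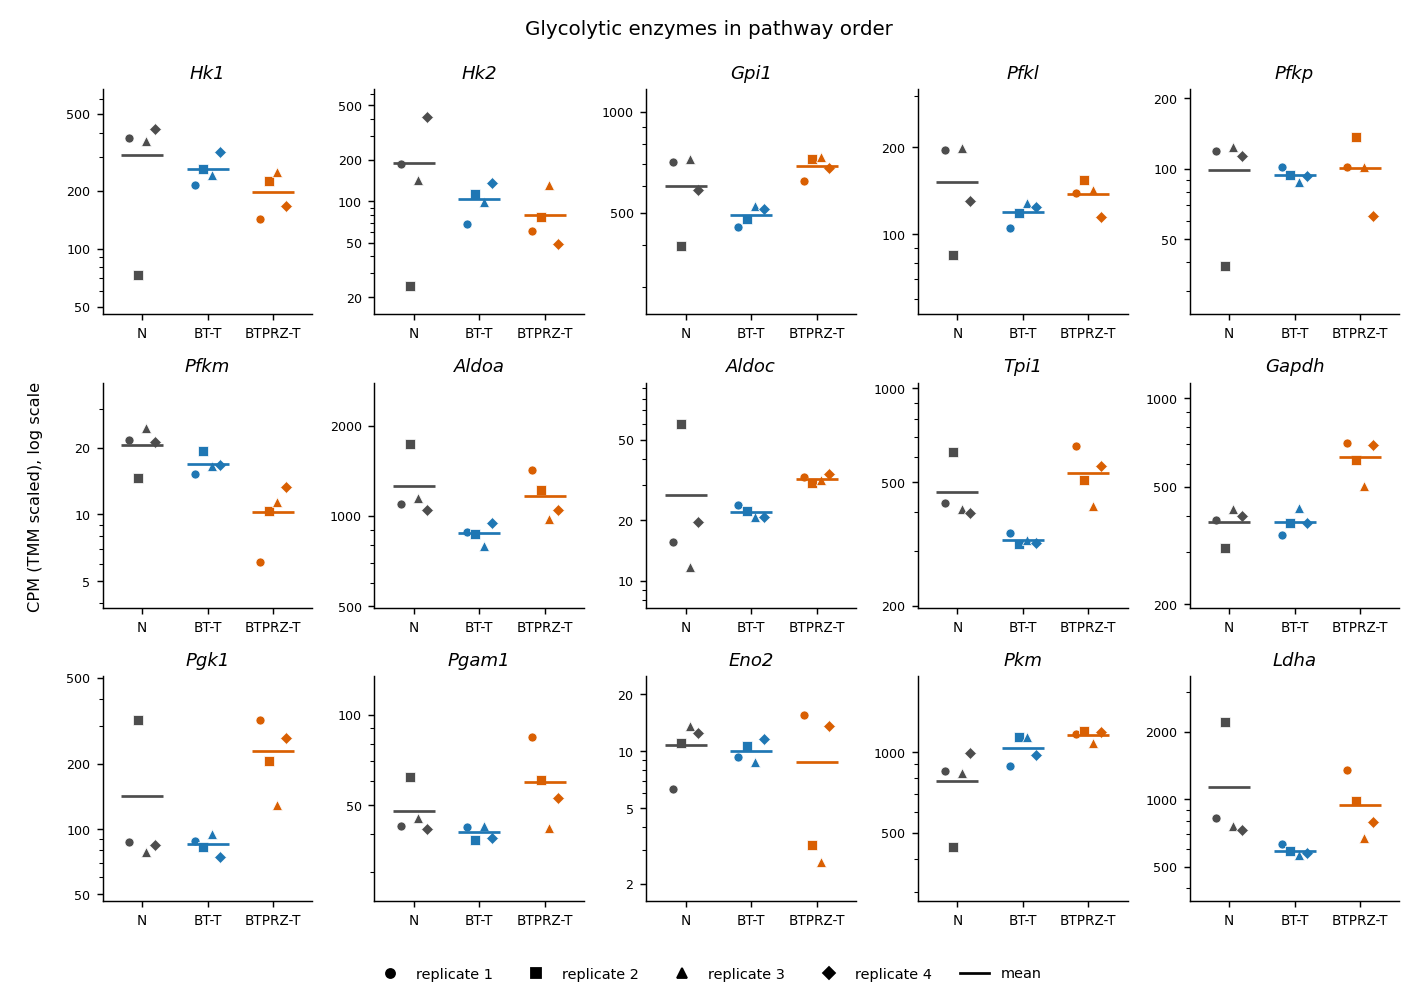
CPM (log axes) of the 15 measured glycolytic enzymes in every library, in pathway order, with a marker shape per replicate and a line at the group mean. In N, replicate 2 lies apart for Hk1, Aldoc, Pgk1 and Ldha, and the BT-T libraries lie close together for most enzymes.

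With all 12 libraries, none of the enzymes of the upper steps rose. Without N replicate 2, Aldoc rose in BTPRZ-T against N, and Gpi1, Aldoc and Tpi1 rose against BT-T. Hk1 and Hk2, the hexokinases that trap glucose in the cell, ranged over 142 to 250 CPM and 48.6 to 130 CPM in BTPRZ-T, against 362 to 420 CPM and 143 to 410 CPM in N replicates 1, 3 and 4. N replicate 2 held 73.0 CPM of Hk1 and 24.0 CPM of Hk2, and with it neither gene passed. Without it Hk1 fell by 0.98 ± 0.21 (adjusted p = 0.00552) and Hk2 by 1.64 ± 0.40 (adjusted p = 0.00999) in BTPRZ-T against N. Gpi1, the isomerase of the next step, stood at 621 to 731 CPM in BTPRZ-T, above every BT-T library (452 to 522 CPM). Among the phosphofructokinases, Pfkl and Pfkp showed no call. Pfkm, the muscle type, stood at 21.7, 14.6, 24.6 and 21.2 CPM in N, at 15.3, 19.3, 16.5 and 16.7 CPM in BT-T, and at 6.07, 10.3, 11.4 and 13.3 CPM in BTPRZ-T. On the TMM scale all BTPRZ-T libraries lay below all others. It fell by 1.00 ± 0.28 against N (adjusted p = 0.0358), a call that was lost when any 1 of 10 libraries was left out, all except N replicate 2 and BTPRZ-T replicate 4, with an adjusted p of up to 0.099. The call was also lost with no filter, with the 2 groups alone and with the replicate block. Smooth muscle markers were lower in BTPRZ-T too, as given above, and their part in the fall of Pfkm was not tested.

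Of the enzymes of the lower steps, 1 rose in BTPRZ-T against N with all 12 libraries. This was Gapdh, the dehydrogenase at the start of the energy-yielding steps, which stood at 387, 311, 422 and 397 CPM in N, at 343, 378, 424 and 378 CPM in BT-T, and at 707, 618, 504 and 697 CPM in BTPRZ-T. The N and BT-T libraries overlapped, and every BTPRZ-T library lay above them. It rose by 0.73 ± 0.22 against N (adjusted p = 0.044), and the same size against BT-T did not pass (0.73 ± 0.22, adjusted p = 0.121). The call against N was lost when any 1 of 10 libraries was left out, all except N replicate 2 and BTPRZ-T replicate 3, with an adjusted p of up to 0.104. It was also lost with RLE factors in place of TMM, with no filter, with the 2 groups alone and with the replicate block. The adjusted p over all alternatives reached 0.193. Pgk1, the next kinase, stood at 87.2, 318, 78.8 and 84.2 CPM in N, at 88.0, 82.8, 95 and 74.4 CPM in BT-T, and at 318, 205, 129 and 265 CPM in BTPRZ-T. Apart from N replicate 2, which stood level with the highest tumour library, all BTPRZ-T libraries lay above all others. Its log2 fold change against N was 0.69 ± 0.45 (adjusted p = 0.378) with all libraries and 1.46 ± 0.26 (adjusted p = 0.00189) without N replicate 2. Against BT-T it was 1.43 ± 0.45 (adjusted p = 0.142), or 1.43 ± 0.23 (adjusted p = 0.00511) without that library.

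Ldha, which turns pyruvate into lactate, stood at 828, 2216, 758 and 726 CPM in N, at 629, 586, 562 and 573 CPM in BT-T, and at 1344, 984, 671 and 789 CPM in BTPRZ-T. On the TMM scale the BT-T libraries lay below all others, and N and BTPRZ-T overlapped. No comparison passed, with -0.95 ± 0.38 in BT-T against N (adjusted p = 0.151), or -0.33 without the 3 libraries of fewest detected genes, and 0.69 ± 0.38 in BTPRZ-T against BT-T (adjusted p = 0.366). Without N replicate 2 the rise over BT-T passed (0.69 ± 0.21, adjusted p = 0.0397), as did those of Tpi1, Gpi1, Gapdh and Aldoc. Aldoa and Tpi1, of the aldolase and isomerase steps, were likewise lowest in BT-T, with levels of 792 to 950 and 315 to 342 CPM below all other libraries on the TMM scale. Pgam1, the mutase, stood at 41.7 to 62.3 CPM (N), 38.5 to 42.7 CPM (BT-T) and 42.1 to 84.0 CPM (BTPRZ-T), with no call. Pkm, the pyruvate kinase, stood at 888 to 1140 CPM (BT-T) and 1086 to 1205 CPM (BTPRZ-T), against 444 to 993 CPM in N. Every BTPRZ-T library lay above every N library, and it did not pass (0.58 ± 0.27, adjusted p = 0.203). Eno2, the enolase of neurons and other cells, split within BTPRZ-T at 15.6, 3.21, 2.59 and 13.7 CPM, against 6.33 to 13.5 CPM in N. Its log2 fold change against N was -0.31 ± 0.53, and -1.83 without N replicate 2 and BTPRZ-T replicates 1 and 4, where it passed. The summed level of 12 neuron and glia markers split the same way, at 40.3, 22.9, 12.3 and 39.1 CPM in BTPRZ-T replicates 1 to 4 against 79.5 to 172 CPM in N. Of the 12, 5 fell in BTPRZ-T against N, beside 6.18% of all genes. The part of these markers in the Eno2 levels was not tested.

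Ldhb, the isozyme of oxidative tissues, was read as the partner of Ldha. It stood at 11.9 to 29.6 CPM in N, 7.87 to 12.9 CPM in BT-T, and 16.8, 6.37, 3.80 and 0 CPM in BTPRZ-T, where replicate 4 held 0 reads and the others 261, 133 and 69. A count of 0 in that library allows up to 3 reads, counting error only, whereas the other 11 libraries held 69 to 437. The ratio of Ldhb to Ldha was lower in all 4 BTPRZ-T libraries than in all 8 others, with exact permutation p = 0.0286 and adjusted p = 0.118 against either group. Of the 33 ratio tests on 11 pairs of related genes, 8 reached the smallest possible p and none passed after adjustment.

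Neighbouring pathways were read from lists of related genes. Of 27 tested isozymes and partners of glycolysis, 3 fell in BT-T, among them Pgm1 and Slc2a10, and none rose, 11.1% beside 8.57% of all genes. In BTPRZ-T 5 fell, among them Galm, Slc2a10, Slc16a1 and Pdk4, and 1 rose, Ldhd, a dehydrogenase of D-lactate, by 0.91 ± 0.27 (adjusted p = 0.0484), together 22.2% beside 11.8%. Pck1, the first committed enzyme of gluconeogenesis, stood at 142 to 232 CPM (N), 87.5 to 162 CPM (BT-T) and 37.3 to 64.8 CPM (BTPRZ-T). It fell by 2.05 ± 0.27 against N (adjusted p = 0.000741) and by 1.42 ± 0.26 against BT-T (adjusted p = 0.0404). The call against BT-T was lost without any 1 of 8 libraries (N replicates 1 and 3, BT-T replicates 1, 2 and 4, BTPRZ-T replicates 1, 2 and 3), with an adjusted p of up to 0.162. Of 6 tested gluconeogenic genes, 2 fell in BTPRZ-T against N, Pck1 and Fbp1, which is 33.3% beside 11.8% of all genes. None was called in BT-T against N, beside 8.57% of all genes. Of 12 genes of the pentose phosphate and glycogen routes, 2 fell in BTPRZ-T, Pgd by 0.66 ± 0.20 (adjusted p = 0.0467) and Pygb by 1.34 ± 0.34 (adjusted p = 0.0246), and none in BT-T. These 2 are 16.7% of the 12, near the 11.8% of all genes. Absorptive colonocyte markers fell in both tumour groups, as given above, and their part in the lower level of Pck1 was not tested.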

How the data were processed

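Poly(A) RNA of 12 mouse colon libraries was sequenced as single reads of 100 bases from a stranded kit, per the labels. The deposited files hold raw read counts per gene with no normalization by the authors. Reads were aligned to mm10 with STAR 2.4.2a after bcl2fastq 2.20, and edgeR 3.16.5, limma and HTSeq are also listed, per the submitters' processing notes. The annotation behind the counts is not named in these sources.

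Counts of the strand with the most gene reads were used. Genes were filtered with filterByExpr and scaled by TMM. A quasi-likelihood model (edgeR 4.0.16, R 4.3.3, robust, 1 mean per group, all 12 libraries) gave two-sided tests with Benjamini-Hochberg adjustment over 14860 genes. The common biological coefficient of variation was 0.501. Simulated counts with known changes were used to check the fit. Ratios within a library used reads plus 0.5. Transcript lengths and gene positions are from GENCODE M21. Alternatives were other scaling factors and filters, DESeq2 1.42.0, voom of limma 3.58.1, unstranded counts, a fit of the 2 compared groups alone, a replicate block, removal of the length trend, leaving out libraries and, for overlap between libraries, CPM without TMM factors. The named genes were all 40 genes, by library where called or plotted, and up to 6 called genes of each neighbouring list by lowest adjusted p, with Ldhb as partner of Ldha. The genes and lists were chosen with earlier results of these data known. Replicate numbers are not said to pair libraries, and deviations of same-numbered libraries correlated at -0.225 to 0.261, so they were not treated as pairs. A result on 1 gene of the neighbouring pathways is not reported here.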

Additional observations from a re-analysis of the deposited data

Results flagged for a closer look

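Over 117 sets of 4 libraries (39 genes in 3 groups), 13 had a library whose gap to its nearest neighbour exceeded Dixon's critical share of the group's range, where chance gives about 1 in 20. N replicate 2 accounts for 10 of the 13. It was high for Aldoa (1737 CPM, next 1148), Aldoc (60.2 CPM), Tpi1 (626 CPM), Pgk1 (318 CPM), Ldha (2216 CPM), Pdk1 (135 CPM) and Higd1a (125 CPM). It was low for Hk1 (73.0 CPM, next 362), Pfkp (38.3 CPM) and Egln1 (37.7 CPM). The same library held 10.96% of its gene reads on ribosomal protein genes and favoured short transcripts, and their part in these values was not tested.

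The other 3 were Ndrg1 in BTPRZ-T replicate 1 (404 CPM, next 309), Stc2 in N replicate 3 (8.98 CPM, next 6.45) and Stc2 in BT-T replicate 3 (49.4 CPM, next 8.03). The effect on Egln3 differed between the tumour genotypes by 1.59 on the log2 scale, as tested by BTPRZ-T against BT-T.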

How the results depend on the processing

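Counts of called genes depended on the spread estimate and on single libraries. For BT-T against N (1 called), DESeq2 gave 5, voom 4, voom with sample quality weights 25, the 2 groups alone 3, removal of the length trend 4, and omission of the 3 libraries with the fewest detected genes 15. For BTPRZ-T against N (11 called), quality weights gave 25, the 2 groups alone 2 (Egln3 and Stc2) and omission of those 3 libraries 19. For BTPRZ-T against BT-T (1 called), DESeq2 gave 6, quality weights 29, the 2 groups alone 9 and omission of those 3 libraries 15. Of all genes, DESeq2 called 16.7%, 21.3% and 8.49% in these comparisons and quality weights 41.4%, 55.3% and 52.0%. The larger counts under these settings thus came with larger shares of all genes, and were not tested against those shares. The 2 groups alone called 9.65%, 4.59% and 10.8% of all genes, so the 2 genes kept in BTPRZ-T against N are near that share. In BT-T against N voom called 9.1% of all genes and removal of the length trend 12.5%. Omission of the 3 libraries called 28.7%, 34.9% and 24.5% of all genes. Leaving out 1 library in turn gave 1 to 5, 6 to 19 and 0 to 12. The shares of all genes then called were 4.15 to 13.5%, 7.14 to 32.3% and 0 to 18.0%. With the replicate block the counts were 1, 8 and 0, beside 6.36%, 7.81% and 0.00673% of all genes. Same-numbered libraries did not deviate together. No called gene changed direction under any of the 25 alternatives. The median log2 fold change of the 14 hypoxia-induced genes in BT-T against N moved from 0.40 to 0.60 without N replicate 2. Genes under a few CPM, such as Ankrd37 and Adm, rest on few reads, and N replicate 2 and the spread between libraries limit what the enzymes can show. Overlap between libraries was also read without TMM factors, an alternative chosen after seeing the data. The genes with no overlap then numbered 10, 13 and 15 in place of 10, 13 and 16, but genes were exchanged. In BT-T against N, Aldoa, Tpi1, Ldha and Pfkfb4 came to overlap, and Pkm, Vegfa, Ankrd37 and P4ha2 came to lie above N. In BTPRZ-T against N, Pfkm and Pfkfb4 came to overlap, and Adm and Mxi1 came to lie above N. In BTPRZ-T against BT-T, Aldoa and Ldha came to overlap and Pdk1 came to lie below BT-T. With TMM factors, 10 of the 39 genes lay above in BTPRZ-T against N, beside 6.88% of all genes. In BTPRZ-T against BT-T 13 did, beside 11.5%. A further 3 lay below in each of these 2 comparisons. Shares of all genes were not computed for BT-T against N, for genes lying below or without TMM factors.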
